A study of Mus musculus with 2 samples.

Results

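The genes described here mark the passage of a B cell to maturity and the light chain it makes. They are 9 of the 32285 genes in the 2 deposited count tables, and were chosen by name: Ms4a1, Cr2, Fcer2a, Cd22 and Ighd, then the kappa constant gene Igkc and the lambda constant genes Iglc1, Iglc2 and Iglc3. All 9 were found. They were followed in the cells that the authors' annotation names CLP, B1, B2 and B3, which number 2682 of 8166 annotated cells in the c-Maf KO library and 1799 of 7669 in the control library. Endothelial and hematopoietic cells of mouse liver were taken at postnatal day 15 (P15), isolated by FACS and loaded into droplets. Transcripts were counted by unique molecular identifiers (UMIs), so a count is a molecule and not a read. One library was made from c-Maf KO endothelial cell mice and one from control endothelial cell mice, and each pooled the cells of 1 male and 1 female mouse. The control library is also tagged WT. The sources used here do not give the driver of the deletion, the strain or the sort gates. With a single library on each side there is no replicate check and no test. A comparison sets one library against the other, and the 95% intervals reflect counting error alone.

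A B cell first builds a heavy chain with the help of a surrogate light chain, then rearranges a kappa or a lambda light chain gene and shows IgM on its surface. On the way to a mature follicular or marginal zone cell it adds IgD, which is made from the same heavy chain transcript as IgM by alternative splicing, and receptors that tune the B cell receptor. A mature B cell normally keeps only one type of light chain, and mouse B cells use kappa far more often than lambda. Ms4a1 encodes CD20, a membrane protein of B cells; Cr2 encodes the complement receptor CD21; Fcer2a encodes CD23, the low-affinity receptor for IgE; Cd22 encodes an inhibitory sialic acid-binding co-receptor; and Ighd encodes the constant region of IgD.

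The lambda results rest on telling the constant genes apart, so the last 120 coding bases of each, stop codon included, are shown 5′ to 3′ from GENCODE M21 transcripts (GRCm38, chromosome 16, minus strand). Capitals mark the 40 positions at which the 3 genes are not all the same. Iglc1 covers chr16:19061752-19061871, Iglc2 chr16:19198536-19198655 and Iglc3 chr16:19065365-19065484.

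Iglc1: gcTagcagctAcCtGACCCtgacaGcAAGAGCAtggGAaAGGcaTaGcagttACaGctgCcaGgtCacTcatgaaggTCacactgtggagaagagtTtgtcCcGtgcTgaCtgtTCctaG

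Iglc2: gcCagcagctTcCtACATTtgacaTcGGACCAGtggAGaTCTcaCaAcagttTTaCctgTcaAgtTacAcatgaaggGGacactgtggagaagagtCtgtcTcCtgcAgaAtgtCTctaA

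Iglc3: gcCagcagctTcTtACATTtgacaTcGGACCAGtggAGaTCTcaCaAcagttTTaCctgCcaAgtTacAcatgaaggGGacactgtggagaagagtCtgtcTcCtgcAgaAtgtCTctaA

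Iglc1 stands alone at 38 of these positions, Iglc2 at 1 and Iglc3 at 1. Over the whole coding sequence Iglc2 and Iglc3 were 96.2% identical, and 21 of the 259 windows of 60 bases in Iglc2 were also in Iglc3. Iglc1 was 73.3% identical to Iglc2 and 74.1% to Iglc3, with 0 shared windows. Past the stop codon, Iglc2 and Iglc3 were 89.3% identical, again with 0 shared windows. The sources used here do not say how reads that match both genes were counted, so the division of UMIs between Iglc2 and Iglc3 is uncertain, while their sum and Iglc1 are less exposed to it. The other light chain gene, Igkc, lies on chromosome 6 from 70726435 to 70726966 on the plus strand, inside the long noncoding RNA gene Gm30211 of the same strand. Ighd lies on chromosome 12 (113406604 to 113416324), Ms4a1 on chromosome 19 (11249675 to 11266241), Cr2 on chromosome 1 (195136811 to 195176716), Fcer2a on chromosome 8 (3681737 to 3694175) and Cd22 on chromosome 7 (30865402 to 30880342), all on the minus strand of GRCm38. Annotated antisense genes overlap Ms4a1, Cd22, Iglc1 and Iglc3, and the sources used here do not say whether counting used strand.

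The 4 clusters held 239, 1114, 850 and 479 c-Maf KO cells in CLP, B1, B2 and B3, and 55, 295, 618 and 831 control cells. A sort and the pooling of mice can set these numbers. Median depth per cell in the same order was 4059, 2878.5, 2871.5 and 3612 UMIs in the c-Maf KO library and 5374, 3232, 3167 and 4414 in the control library. The cluster named CLP went against its name, since 11 pro-B and pre-B cell markers summed to 19967 UMIs per 1000000 UMIs of the cluster (CPM) in its c-Maf KO cells and 16896 CPM in its control cells, with Vpreb1 or Vpreb3 as the leading gene. The 8 early lymphoid progenitor markers summed to 3075 CPM in c-Maf KO and 2707 CPM in control cells of cluster CLP, led by Dntt, and to 4904 CPM in c-Maf KO and 4955 CPM in control B1 cells, led by Ly6d. In cluster CLP 7 of the 8 were detected in each library, and the one missing was Flt3 in c-Maf KO and Cd34 in control cells. It is called cluster CLP here only as a name. From there to B3 the pro-B and pre-B sum was lower in each cluster, down to 343.5 CPM in c-Maf KO and 284 CPM in control B3 cells. A list of 12 mature B cell markers that are none of the 9 genes summed to 652 CPM in c-Maf KO and 588 CPM in control cells of cluster CLP. That list, led by Klf2 in every cluster, summed to 3963 CPM in c-Maf KO and 4462 CPM in control B2 cells. In B3 it summed to 4251 CPM in c-Maf KO and 4240 CPM in control cells, so in the control library B2 stood above B3. Maf itself had 162 CPM in endothelial clusters of the c-Maf KO library, against 2070 CPM in the control library. In B3 it had 11.2 CPM (24 UMIs) in the c-Maf KO library and 17.6 CPM (78 UMIs) in the control library. The libraries shared 25 barcodes, of which 21 were annotated.

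Each of the 5 surface and IgD genes had its highest level in B2 or B3 of both libraries, and they arrived in different clusters. Because clusters were formed from the genes of these same cells, levels across clusters are a description with no test. Ms4a1 was low in cluster CLP (47.4 CPM in c-Maf KO, 77.3 CPM in control) and in B1 (235 CPM in c-Maf KO, 150.9 CPM in control). It was highest in B2, at 2583 CPM (95% interval 2524 to 2644) in c-Maf KO and 2349 CPM (2285 to 2414) in control cells, and lower again in B3, at 1255 CPM in c-Maf KO and 1227 CPM in control cells. A UMI of Ms4a1 was held by 20.9% of c-Maf KO and 16.9% of control B1 cells and by 97.8% of c-Maf KO and 97.4% of control B2 cells. Among cells of the 3 T clusters, which should lack the gene, 3.99% of c-Maf KO and 4.39% of control cells held one, at median depths of 5076 to 6104 UMIs in c-Maf KO and 5609 to 6250.5 UMIs in control T clusters. In cluster CLP the shares were 4.18% of c-Maf KO and 9.09% of control cells. Of the cells with a UMI there, 5 of 10 in c-Maf KO and 2 of 5 in control belonged to the 7 c-Maf KO and 4 control cells in which neither light chain held 90% of at least 5 light chain UMIs, and 1 control cell held 19 of 26 UMIs. After every cell was thinned to 2195 UMIs, cluster CLP had 3.56% in c-Maf KO and 3.77% in control cells, against 24 of 800 c-Maf KO and 27 of 1118 control T cells.

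Fcer2a and Cr2, the receptors for IgE and complement, were nearly absent before B2. In cluster CLP Fcer2a had 6 UMIs in 3 c-Maf KO cells (5.58 CPM, 2.05 to 12.1) and 0 in control cells, and Cr2 had 0 UMIs in c-Maf KO and 1 in control cells. Fcer2a had 0 UMIs in c-Maf KO B1 cells, which allows up to 0.924 CPM (3 UMIs over the cluster), and 1 UMI in control B1 cells. It stood at 63.9 CPM in c-Maf KO and 83.3 CPM in control B2 cells, and at 355 CPM in c-Maf KO and 368 CPM in control B3 cells. The share of cells with a UMI of Fcer2a was 11.1% in c-Maf KO and 13.6% in control B2 cells, and 55.7% in c-Maf KO and 62.0% in control B3 cells, against 0.726% of c-Maf KO and 1.58% of control T cells. Cr2 had the fewest UMIs of the 9 genes in B2 and B3, with no correction for length. It too had 0 UMIs in c-Maf KO B1 cells and 1 UMI in control B1 cells, then 21.4 CPM in c-Maf KO and 12.5 CPM in control B2 cells, and 32.2 CPM in c-Maf KO and 40.1 CPM in control B3 cells. The intervals of B2 and B3 overlapped for Cr2 in the c-Maf KO library and not in the control library.

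Cd22 was detected earlier and reached one level in B2 and B3. Its levels in c-Maf KO cells were 18.6, 46.5, 155 and 161 CPM in CLP, B1, B2 and B3, and those in control cells were 5.94, 42.0, 143 and 144 CPM. In both libraries the B2 and B3 intervals overlapped. Ighd was present throughout and highest in B3. It had 58.6, 69.6, 238 and 563 CPM in c-Maf KO cells of CLP, B1, B2 and B3, against 44.6, 73.95, 327 and 569.5 CPM in control cells. In cluster CLP 20.9% of c-Maf KO and 16.4% of control cells held a UMI of it, above the 4.96% of c-Maf KO and 6.50% of control T cells. Ighd was also set against Ighm, the gene of the IgM heavy chain, as a share of the UMIs of both genes. In cluster CLP Ighd made up 2.75% (2.12 to 3.51) in c-Maf KO and 1.94% (1.09 to 3.17) in control cells. It made up less in B1, at 1.13% in c-Maf KO and 1.15% in control cells. That share was 3.19% (2.96 to 3.44) in c-Maf KO and 4.83% (4.49 to 5.19) in control B2 cells, and 11.3% (10.7 to 12.0) in c-Maf KO and 11.4% (10.9 to 11.8) in control B3 cells. The B2 intervals of the libraries did not overlap and the B3 intervals did. Of the c-Maf KO B2 Ighm UMIs, 1611 of 19884 came from 1 cell, while no control B2 cell held more than 96. The intervals treat each UMI as independent, and the B2 share without that cell was not computed.

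**Figure D1:**
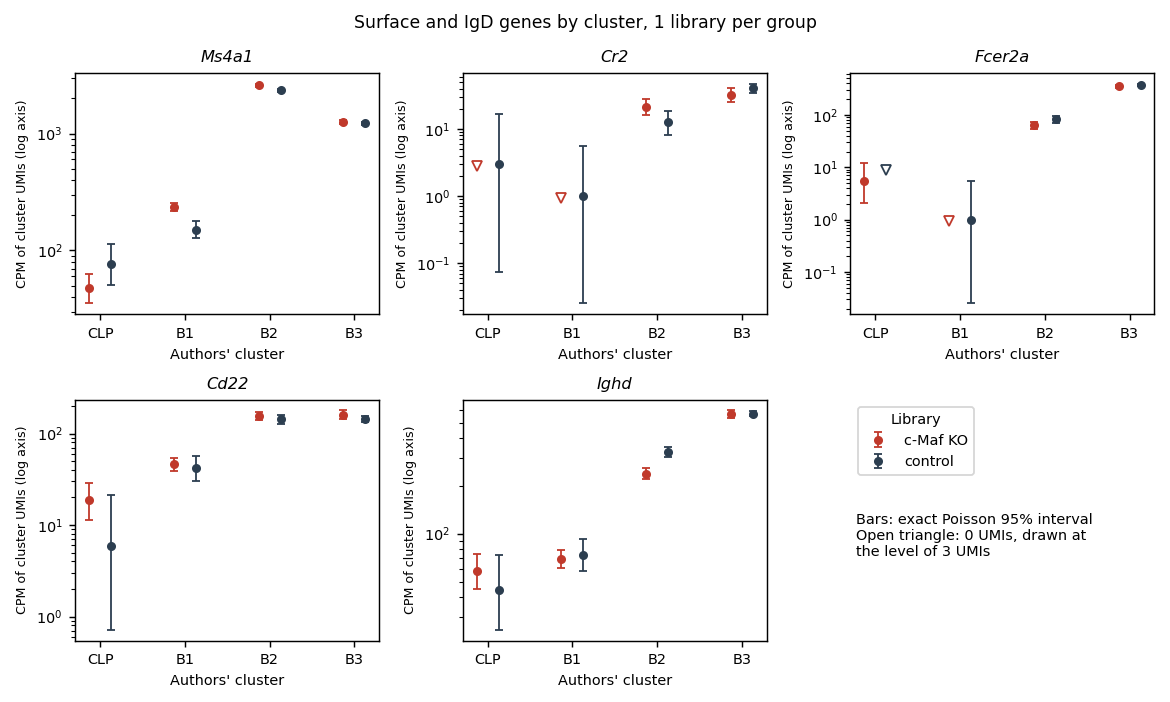
Level of each surface and IgD gene in CPM (log axis) in the 4 clusters, with c-Maf KO to the left of control and bars for the exact Poisson 95% interval; open triangles are 0 UMIs, drawn at the level of 3 UMIs. Ms4a1 peaks in B2 at 2583 CPM in c-Maf KO and 2349 CPM in control cells, and Fcer2a, Ighd and Cr2 are highest in B3.

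Within single cells the 5 genes accumulated from B1 to B3. All but 7 c-Maf KO and 7 control B2 cells, and every B3 cell, held a UMI of at least 1 of them. The full set of 5 was seen in 4.59% of c-Maf KO and 6.14% of control B3 cells, and 0.235% of c-Maf KO and 0.324% of control B2 cells. In B1, 62.3% of c-Maf KO and 60.3% of control cells held none. These counts depend on depth, and B3 cells were deeper than B2 cells in both libraries.

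The light chain genes were abundant already in B1. Igkc had 584 CPM in c-Maf KO and 796 CPM in control cells of cluster CLP, 7935 CPM in c-Maf KO and 7557 CPM in control B1 cells, 15156 CPM in c-Maf KO and 13959.8 CPM in control B2 cells, and 9407 CPM in c-Maf KO and 9112 CPM in control B3 cells. Of the c-Maf KO B2 sum, 2619 of 41722 UMIs came from 1 cell. In the T clusters, whose cells should lack the gene, Igkc had 228 CPM in c-Maf KO and 236 CPM in control cells.

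Each lambda gene took its own course. Iglc1 was highest in B2, with 3609 CPM in c-Maf KO and 3855 CPM in control cells, and had 1568 CPM in c-Maf KO and 1622 CPM in control B3 cells. Iglc2 was highest in B3: it had 475 CPM in c-Maf KO and 839 CPM in control B1 cells, 1783 CPM in c-Maf KO and 2230.4 CPM in control B2 cells, and 2099 CPM in c-Maf KO and 2339.9 CPM in control B3 cells. Iglc3 had 781 CPM in c-Maf KO and 964 CPM in control B1 cells, 1142 CPM in c-Maf KO and 1288 CPM in control B2 cells, and 1105 CPM in c-Maf KO and 1148 CPM in control B3 cells. Its B2 and B3 intervals overlapped in the c-Maf KO library. The 3 genes together had 109.7 CPM in c-Maf KO and 130.1 CPM in control T clusters, against 4772 CPM in c-Maf KO and 5109.97 CPM in control B3 cells.

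**Figure D2:**
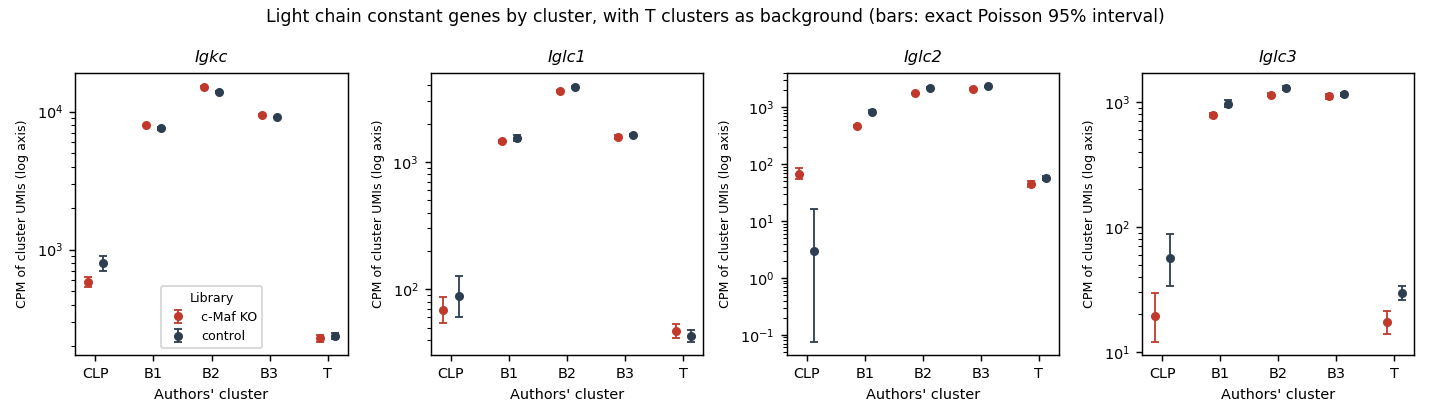
Level of each light chain constant gene in CPM (log axis) in the 4 clusters and in the pooled T clusters, c-Maf KO left of control, with exact Poisson 95% intervals. Igkc and Iglc1 are highest in B2 and Iglc2 in B3, and every gene is above its T cluster level in B1, B2 and B3.

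The makeup of the lambda UMIs differed between the clusters. From B1 to B3 the order of the shares was alike in both libraries, while in cluster CLP, with 169 lambda UMIs in c-Maf KO and 50 in control cells, Iglc2 held 43.8% in c-Maf KO and 1 UMI in control cells. Iglc1 held 53.6% of them in c-Maf KO and 46.0% in control B1 cells, 55.2% in c-Maf KO and 52.3% in control B2 cells, and 32.9% in c-Maf KO and 31.7% in control B3 cells. Iglc2 held 17.5% in c-Maf KO and 25.1% in control B1 cells, 27.3% in c-Maf KO and 30.2% in control B2 cells, and 44.0% in c-Maf KO and 45.8% in control B3 cells. Iglc3 held 28.8% in c-Maf KO and 28.9% in control B1 cells, 17.5% in both libraries in B2, and 23.2% in c-Maf KO and 22.5% in control B3 cells. Iglc4, the remaining lambda constant gene, had at most 9 UMIs in any of these clusters other than control B3, where it had 19.

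**Figure D3:**
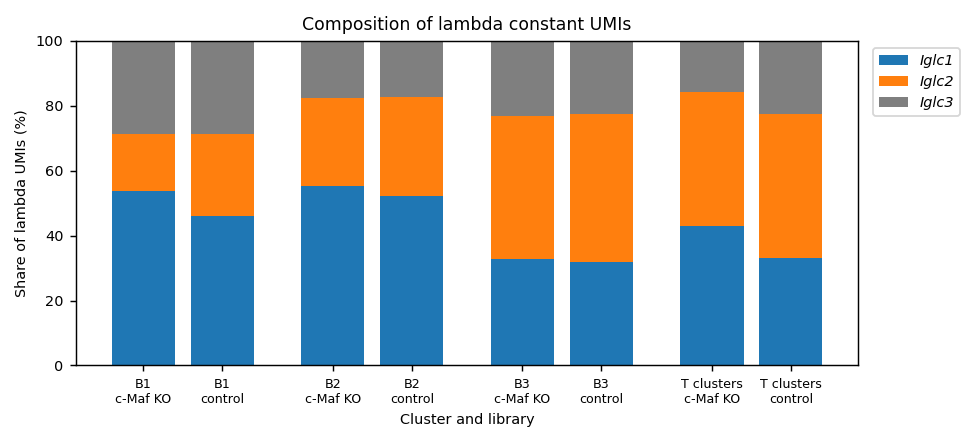
Share of Iglc1, Iglc2 and Iglc3 in the summed lambda UMIs of B1, B2, B3 and the T clusters, c-Maf KO left of control. In B3 Iglc2 holds 44.0% in c-Maf KO and 45.8% in control cells, against 17.5% and 25.1% in B1.

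Most B2 and B3 cells of both libraries held kappa and lambda constant UMIs together. Both kinds were seen in 621 of 1114 c-Maf KO (55.7%) and 177 of 295 control B1 cells, 88.1% of c-Maf KO and 90.5% of control B2 cells, and 95.6% of c-Maf KO and 95.5% of control B3 cells. After thinning the shares were 52.1% in c-Maf KO and 53.6% in control B1 cells, 88.9% and 90.3% in B2, and 94.7% and 94.3% in B3. T cells with both kinds made up 3.14% in the c-Maf KO and 4.39% in the control library, at deeper cells than those of B1 to B3, and 2.38% and 2.50% after thinning. The share in B1 to B3 was above that of T cells, which is not a like background. A T cell should make neither chain and needs UMIs of both from outside the cell. A cell that makes kappa needs only a lambda UMI from outside. T cells held 0.719 lambda UMIs per cell in c-Maf KO and 0.897 in control, against 7.89 and 11.3 in B1. Cells with both kinds were not particular to these clusters. In the authors' cluster CMP, 53.9% of c-Maf KO and 56.0% of control cells held both kinds, and 38.2% and 32.9% after thinning. The counts do not show whether a constant gene UMI comes from a rearranged transcript, and no doublet caller was run.

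Cells with at least 5 light chain constant UMIs were classed as kappa or lambda where one type held at least 90% of them, and as mixed otherwise. Lambda-class cells made up 9.71% of classed c-Maf KO (95% interval 8.003 to 11.6) and 10.0% of classed control B1 cells (6.82 to 14.1). They were 10.4% of c-Maf KO (8.40 to 12.6) and 10.4% of control B2 cells (8.13 to 13.1), and 5.86% of c-Maf KO (3.93 to 8.36) and 6.26% of control B3 cells (4.71 to 8.13). The difference, c-Maf KO minus control, was -0.32 percentage points in B1 (-4.73 to 3.42), -0.08 in B2 (-3.41 to 3.15) and -0.40 in B3 (-3.09 to 2.54). Kappa-class cells made up 57.6% of c-Maf KO (54.6 to 60.6) and 55.7% of control B1 cells (49.8 to 61.5). They were 19.0% of c-Maf KO (16.4 to 21.8) and 12.6% of control B2 cells (10.0 to 15.4), and 5.44% of c-Maf KO (3.58 to 7.87) and 2.53% of control B3 cells (1.57 to 3.84). The mixed class filled the rest, up to 88.7% of c-Maf KO and 91.2% of control B3 cells.

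The few UMIs of the other chain differed between the classes. In lambda-class B2 and B3 cells the median number of Igkc UMIs was 0 in both libraries, beside a median of 60 lambda UMIs in c-Maf KO and 75 in control B2 cells, and 52 in c-Maf KO and 77.5 in control B3 cells. Kappa-class cells had a median of 3 lambda UMIs in c-Maf KO and 4 in control B2 cells, and 4 in c-Maf KO and 5 in control B3 cells. In mixed B3 cells the medians were 38 kappa and 14 lambda UMIs in the c-Maf KO library, and 41 and 18 in the control library. Per cell, the lambda share of B3 was spread around a peak at 20 to 25% in c-Maf KO (14.9% of cells) and 25 to 30% in control cells (16.5%), with a separate group of 4.60% of c-Maf KO and 5.54% of control cells at 95% or more. In B1 the largest group lay under 5% lambda, with 46.9% of c-Maf KO and 42.9% of control cells.

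**Figure D4:**
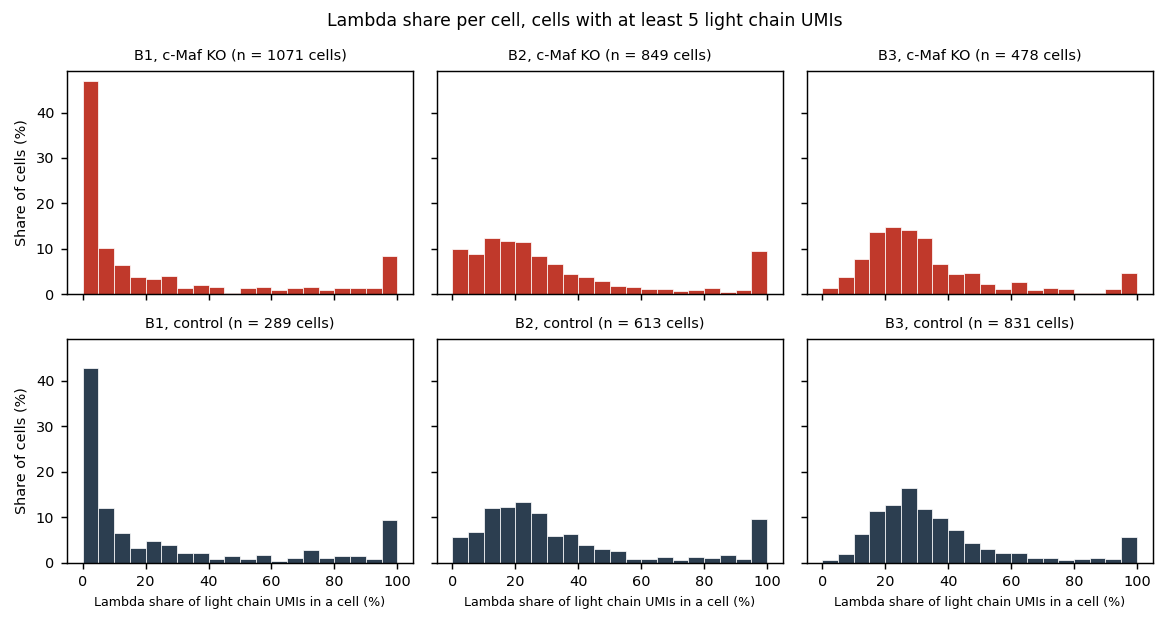
Lambda share of light chain constant UMIs per cell in 5-point bins, as a percent of cells with at least 5 such UMIs, with c-Maf KO above control. Both libraries have a peak at 0 to 5% in B1 (46.9% of c-Maf KO and 42.9% of control cells), a broad hump in B3 and a group at 95% or more.

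The lambda UMIs of kappa-class B1 cells differed in makeup from those of lambda-class B1 cells. In B1, Iglc3 held 77.5% of the 422 lambda UMIs of kappa-class c-Maf KO cells and 67.1% of the 152 of kappa-class control cells, against 19.9% in lambda-class c-Maf KO and 13.6% in lambda-class control cells. In T cells of the same libraries Iglc3 held 15.8% in c-Maf KO and 22.7% in control cells. These shares rest on the uncertain division between Iglc2 and Iglc3. Iglc1, which is less exposed to it, held 15.4% in kappa-class c-Maf KO and 14.5% in kappa-class control B1 cells, against 42.9% in c-Maf KO and 33.2% in control T cells. The makeup was different in kappa-class B2 cells. There Iglc3 held 31.1% in c-Maf KO and 44.2% in control cells, and Iglc1 held 49.9% and 41.3%. Lambda-class cells were led by Iglc1 in 62.5% of c-Maf KO and 58.6% of control B1 cells, and in 13 of 28 c-Maf KO and 26 of 52 control B3 cells. Iglc2 led in 14 of the 28 c-Maf KO and 22 of the 52 control lambda-class B3 cells.

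Variable light chain genes were sampled thinly, with few UMIs per cell. All 160 Igkv and 3 Iglv genes together had 136 UMIs in c-Maf KO and 314 in control B3 cells, of which 27.9% (20.6 to 36.3) in c-Maf KO and 26.8% (21.9 to 32.0) in control cells were Iglv. Over the constant genes lambda made up 33.7% (33.1 to 34.2) in c-Maf KO and 35.9% (35.6 to 36.3) in control B3 cells, which lies inside the first interval in the c-Maf KO library and above it in the control library. Iglv1 had 23 UMIs in c-Maf KO and 47 in control B3 cells, Iglv3 had 13 and 31, and Iglv2 had 2 and 6. The Igkv genes with most UMIs in B3 were Igkv12-46 (7), Igkv9-120 (6) and Igkv1-110 (5) in the c-Maf KO library and Igkv2-109 (20), Igkv12-46 (17) and Igkv14-111 (14) in the control library. An Iglv UMI was held by 25.0% of lambda-class c-Maf KO and 26.9% of lambda-class control B3 cells, against 5.90% of mixed c-Maf KO and 8.44% of mixed control cells. An Igkv UMI was held by 14.3% of lambda-class c-Maf KO and 7.69% of lambda-class control B3 cells, against 17.2% of mixed c-Maf KO and 24.0% of mixed control cells.

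Fcer2a detection differed between the light chain classes of B3. Among lambda-class cells 28.6% of c-Maf KO (13.2 to 48.7) and 42.3% of control cells (28.7 to 56.8) held an Fcer2a UMI, against 58.5% (53.6 to 63.2) of mixed c-Maf KO and 63.3% (59.8 to 66.8) of mixed control cells. Kappa-class cells stood at 38.5% (20.2 to 59.4) in c-Maf KO, below the mixed cells, and at 61.9% (38.4 to 81.9) in control, near them, over 26 c-Maf KO and 21 control cells. The lambda-class cells were the deeper ones, with a median of 4783 UMIs in c-Maf KO and 5997.5 in control cells, against 3615.5 and 4386 in mixed cells. Ms4a1 was held by 96.4% of lambda-class c-Maf KO and 96.2% of lambda-class control B3 cells, against 93.4% and 95.1% of mixed cells. Ighd stood at 64.3% (44.1 to 81.4) and 75.0% (61.1 to 86.0) of lambda-class c-Maf KO and control cells, and 80.2% (76.1 to 83.9) and 82.6% (79.7 to 85.2) of mixed ones. The cells of a library are not replicates, and no test was made of these shares.

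Between the libraries, 2 of 5 genes compared in cluster CLP, 2 of 7 in B1, 1 of 9 in B2 and 0 of 9 in B3 were called by size. Over all genes the shares called were 11.9%, 7.45%, 5.24% and 5.07%. With no test, a gene was called higher or lower in the c-Maf KO library where the ratio of its levels reached 1.5-fold and both sums together held 50 UMIs or more. In B3 all 9 genes could be compared and 0 were called, while 2.79% of 7767 genes were called higher and 2.28% lower (5.07% either way). A count of 0 of 9 lies near that share. The pooled Cr2 value joins cells of female and male type that ran in opposite directions, as given below. The log2 ratio, c-Maf KO over control, in B3 ran from -0.31 for Cr2 (-0.74 to 0.10) to 0.16 for Cd22 (-0.03 to 0.35), with a median of -0.05 over the 9 genes and 0.03 over all genes. The intervals of Igkc (0.05, 0.02 to 0.07) and Iglc2 (-0.16, -0.21 to -0.11) excluded 0 and both lay inside 1.5-fold.

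In B2, Cr2 was the single gene called of 9, where 2.90% of 7268 genes were called higher and 2.34% lower (5.24% either way). Cr2 had 59 UMIs over 850 c-Maf KO cells and 27 over 618 control cells, or 21.4 against 12.5 CPM, a log2 ratio of 0.76 (0.10 to 1.49). No cell held more than 3 of these UMIs. Ighd and Fcer2a had ratios below 1 without being called. Ighd had 238 CPM in c-Maf KO and 327 CPM in control B2 cells (log2 ratio -0.46, -0.61 to -0.30), and Fcer2a had 63.9 CPM in c-Maf KO and 83.3 CPM in control B2 cells (-0.38, -0.69 to -0.07). Sums of marker lists differed in B2 as well. The 12 mature B cell markers summed to 3963 CPM in c-Maf KO and 4462 CPM in control cells. Klf2 led that list, with 1543 CPM in c-Maf KO and 1961 CPM in control cells. Its other genes ran either way, with Ccr7 at 116 CPM in c-Maf KO and 167 CPM in control cells, and Tnfrsf13c at 536 and 442 CPM. The 11 pro-B and pre-B markers summed to 1799.9 CPM in c-Maf KO and 1304 CPM in control cells, and 8 plasma cell markers to 1040.4 CPM in c-Maf KO and 605 CPM in control cells. The plasma cell list was led by Mzb1 and was higher in cluster CLP, at 1902 CPM in c-Maf KO and 1854 CPM in control cells. It therefore did not mark plasma cells alone. Its c-Maf KO B2 sum included UMIs of Jchain, the gene of the joining chain, which are given below. The part of these marker lists in the B2 values was not tested. Iglc2 had 1783 CPM in c-Maf KO and 2230.4 CPM in control B2 cells (-0.32, -0.38 to -0.27).

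In B1, 7 of the 9 genes had 50 UMIs or more and 2 were called, where 4.43% of 6820 genes were called higher and 3.02% lower (7.45% either way). Ms4a1 was higher, with 235 CPM in c-Maf KO and 150.9 CPM in control cells (log2 ratio 0.63, 0.38 to 0.90). Iglc2 was lower, with 475 CPM in c-Maf KO and 839 CPM in control cells (-0.82, -0.94 to -0.70). The sum of Iglc2 and Iglc3, which is less exposed to how shared reads were counted, was 1256 CPM in c-Maf KO and 1804 CPM in control B1 cells. Its log2 ratio was -0.52 (-0.60 to -0.44), inside 1.5-fold. Igkc was at 0.07, Iglc1 at -0.08 and Iglc3 at -0.30. In cluster CLP, 5 genes had 50 UMIs or more and 2 were called, where 6.10% of 4051 genes were called higher and 5.80% lower (11.9% either way). Iglc2 had 74 UMIs in c-Maf KO and 1 in control cells of cluster CLP (log2 ratio 3.96, 2.01 to 9.86), of which 45 came from 1 cell, and Ms4a1 had 51 and 26 (-0.72, -1.41 to 0.04), of which 19 of the control UMIs came from 1 cell. Without the cell richest in it in each library, Ms4a1 in cluster CLP turned to 0.53 and Iglc2 had 29 and 0 UMIs. Iglc2 and Iglc3 summed to 95 UMIs in c-Maf KO and 20 in control cells of cluster CLP, a log2 ratio of 0.54 (-0.14 to 1.35) inside 1.5-fold.

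**Figure D5:**
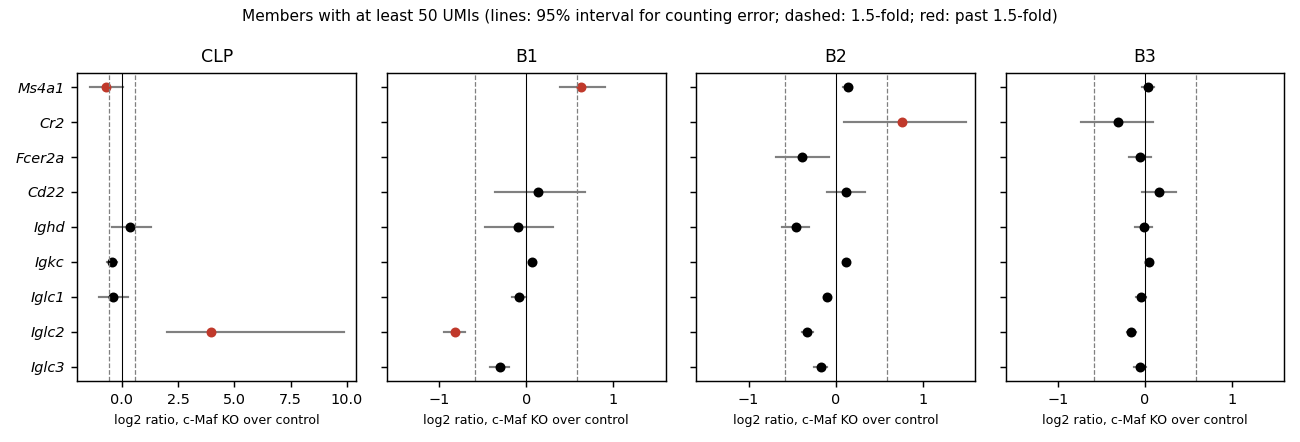
Ratio of c-Maf KO to control levels on a log2 scale for each gene with at least 50 UMIs in the cluster, with 95% intervals for counting error; dashed lines mark 1.5-fold, red points lie past it, and the axis of CLP is wider than the others. In B3 all 9 points lie inside the lines, from -0.31 to 0.16.

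The mix of mice moved with these values. Cells were called female-type where Xist was seen without a Y-linked gene, and male-type where a Y-linked gene was seen without Xist. They numbered 442 and 315 in c-Maf KO B1, against 214 and 29 in control B1. In B2 they numbered 449 and 146 in the c-Maf KO and 209 and 155 in the control library, and in B3 279 and 97, against 273 and 287. The log2 ratio of Ms4a1 in B1 was 1.02 for female-type cells and -0.50 for male-type cells. That of Iglc2 in B1 was -0.46 for female-type cells and -2.77 for male-type cells. That of Cr2 in B2 was 1.604 for female-type cells (35 against 6 UMIs) and 0.27 for male-type cells (8 against 7 UMIs). Cr2 in B3 was past 1.5-fold in both types and in opposite directions, at 1.08 in female-type cells (50 against 37 UMIs) and -1.96 in male-type cells (8 against 89 UMIs), and Ighd in B3 was at 0.68 for female-type cells and -0.56 for male-type cells. Each type is 1 mouse per library, so the spread between mice and a group difference cannot be told apart.

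Pooled over cells, lambda made up less of the light chain UMIs of the c-Maf KO library in B1, B2 and B3. The share was 25.4% in c-Maf KO and 30.7% in control B1 cells, 30.1% in c-Maf KO and 34.6% in control B2 cells, and 33.7% in c-Maf KO and 35.9% in control B3 cells. In cluster CLP, with few such UMIs, it was 21.2% (18.4 to 24.2) in c-Maf KO and 15.7% (11.9 to 20.2) in control cells. The differences were -5.22 percentage points in B1 (-6.20 to -4.24), -4.44 in B2 (-5.01 to -3.87) and -2.27 in B3 (-2.92 to -1.62). These intervals treat each UMI as independent, though UMIs come in blocks from cells, so they understate the spread. The c-Maf KO B2 cell rich in Igkc, given above, weighs on the B2 value. The differences in lambda-class share, which count each cell once, had intervals that ran from negative to positive values in B1, B2 and B3. The kappa-class share also counts each cell once. Its intervals, given above, were apart in B2, where it was higher in c-Maf KO, and overlapped in B1 and B3. With every cell thinned to 2195 UMIs, which leaves out shallower cells, the B1 difference in UMI share was -10.22 (-11.5 to -8.99). Without cells with plasma cell markers the differences were -3.17 in B1, -2.32 in B2 and -6.35 in B3. That setting left out cells with 2 or more UMIs of these markers or any UMI of Jchain. It left out 862 of 1114 c-Maf KO and 244 of 295 control cells in B1, and 457 of 850 and 336 of 618 in B2. In B3 it left out 284 of 479 and 590 of 831, so most cells of each cluster were lost. Among female-type cells the B2 difference was -6.92. In B1 the difference was -0.73 (-2.00 to 0.54) among female-type cells and -36.98 among male-type cells, with 28 classed male-type control cells. In B3 it was -2.52 among female-type and 1.23 (-0.06 to 2.53) among male-type cells. Over variable genes the differences were 0.93 in B1 (-5.29 to 6.77), -0.67 in B2 (-8.24 to 6.68) and 1.19 in B3 (-7.85 to 10.8), intervals too wide to show a difference of this size. In B2, 5 c-Maf KO cells held 729 Jchain UMIs, the joining chain of antibody-secreting cells, against 2 UMIs in 2 control cells. Without cells that held a Jchain UMI the B2 difference was -2.42 and the B3 difference -0.94.

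Of 25 genes of the B cell receptor complex and its signalling, all 25 could be compared in B1, B2 and B3 and 0 were called, beside 7.45%, 5.24% and 5.07% of all genes in those clusters. Their median log2 ratios were 0.05, 0.07 and 0.03, against 0.00, 0.01 and 0.03 over all genes. In B2 the highest were Cd72, an inhibitory co-receptor (0.37), Plcg2, the phospholipase of receptor signalling (0.26), and Pik3ap1, an adaptor of phosphoinositide 3-kinase (0.25). Among the lowest in B2 were Malt1, a paracaspase of the NF-kappa-B route (-0.32), and Fcgr2b, the inhibitory Fc receptor (-0.14). In B3 the highest were Pik3ap1 (0.27), Plcg2 (0.26) and Prkcb (0.25), and among the lowest were Fcgr2b (-0.22) and Vav1 (-0.16). In cluster CLP 3 of 22 were called higher and 2 lower, with Btk, Lyn and Blk higher and Fcgr2b and Cd38 lower, beside 11.9% of all genes called there in either direction. Cluster CLP has 55 control cells, and Fcgr2b had 17 UMIs in c-Maf KO and 34 in control cells.

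Of 18 survival, homing and follicular genes, 1 was called in B2 and 1 in B3, a share near the 5.24% and 5.07% of all genes called in those clusters. Gpr183, a receptor that guides B cells within the follicle, was lower in B2, with 17.4 CPM in c-Maf KO and 30.1 CPM in control cells (48 against 65 UMIs; -0.78, -1.36 to -0.23). Also among the lowest was the homing receptor Ccr7 (-0.53), which was not called, and at the other end stood Icosl (0.43), Cd83 (0.38) and Dtx1 (0.33). In B3 Dtx1, a Notch pathway gene, was higher, with 28 against 33 UMIs or 13.1 CPM in c-Maf KO and 7.43 CPM in control cells (0.82, 0.04 to 1.59). The others at the top were Tnfrsf13c, the BAFF receptor (0.33), and Cd40 (0.28), and at the bottom Gpr183 (-0.34), Cd1d1 (-0.23) and Klf2 (-0.14). In B1 Zfp318, a factor needed for IgD transcripts in mouse B cells, was the 1 called of 14 (7.45% of all genes were called in B1), with 51 UMIs in c-Maf KO and 6 in control cells (1.29, 0.17 to 2.90), and Ighd itself was at -0.09 in B1. In cluster CLP 2 of 8 were called (11.9% of all genes), Klf2 higher (0.64) and Cxcr5 lower (-1.10).

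Over the 8 combinations of cluster and library, the genes whose log2 levels ran most like a given gene were the following, as a description of points that share clusters and libraries. For Ms4a1 they were Man2b1 (Pearson r = 0.997), Sms and Sorl1, for Fcer2a H2-Oa (0.994), Bola2 and Ctsc, and for Ighd Add3 (0.995), Ikbkb and H2-Aa. For Cr2 they were Map3k8 (0.986), Grb2 and Mlycd, and for Cd22 Gucd1, Unc119 and Lgals3 (0.990 to 0.991). For Igkc they were Myl12b (0.998), Brwd1 and Scpep1, for Iglc1 they included Myl12b (0.994) and Rubcn, for Iglc2 Cdc42se1 (0.993), Mapk8ip3 and Kmo, and for Iglc3 Rasgrp1 (0.997), Rubcnl and Gramd3. Among the 9 genes themselves, Fcer2a and Ighd had r = 0.97 and Fcer2a and Iglc3 r = 0.49.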

How the data were processed

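The 2 libraries of sorted liver cells, 1 c-Maf KO and 1 control, were analysed. The authors deposited whole UMI counts per gene and barcode for each, and 1 annotation table with cluster names and genotypes, per the file headers. The submitters' processing notes name Cell Ranger 4.0.0, Seurat 3.2.3, FastQC 0.11.3 and the mm10 build; the sources used here do not give parameters. The tables held 60281713 c-Maf KO and 54143192 control UMIs. Leaving out genes found in under 10 barcodes, 8150 c-Maf KO and 7669 control cells had the deposited total.

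The 9 genes and all lists were chosen with earlier results of these data known. UMIs were summed per cluster and divided by all UMIs of its cells (CPM). Levels carry exact Poisson, shares Clopper-Pearson, ratios exact conditional binomial and differences of shares Newcombe-type 95% intervals. Ratios used sums with 0.5 UMI added. No statistical test was run; the ratio, its interval and the call by size were tested on simulated data. Thinning to 2195 UMIs left out 14, 183, 132 and 26 c-Maf KO and 2, 21, 64 and 6 control cells of CLP, B1, B2 and B3. No doublet caller was run; cells with 3 or more UMIs of another class's markers were left out as an alternative. Named genes are the 9, the 3 genes most like each among those with at least 200 UMIs, the leading 3 Igkv and all Iglv genes of B3, and the 3 highest and 3 lowest of both lists in B2 and B3; some genes that this rule names are not reported here. List genes called in CLP and B1 were named after their values were seen. Python 3.11.15, numpy 2.4.6, scipy 1.17.1, pandas 2.3.3 and Biopython 1.88 were used.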

Additional observations from a re-analysis of the deposited data

Results flagged for a closer look

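Ms4a1 and Iglc2 were each called in opposite directions in neighbouring clusters. The log2 ratio (c-Maf KO over control) of Ms4a1 was -0.72 in cluster CLP and 0.63 in B1. That of Iglc2 was 3.96 in cluster CLP and -0.82 in B1. The difference between the clusters was not tested, and the values in cluster CLP rest on few cells: 10 c-Maf KO and 5 control cells held a UMI of Ms4a1, and 12 c-Maf KO cells and 1 control cell held one of Iglc2. With Iglc2 and Iglc3 summed, neither cluster was past 1.5-fold.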

How the results depend on the processing

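Each log2 ratio, count of genes past 1.5-fold and lambda share was recomputed under other settings. Of 385 recomputed log2 ratios of the 9 genes, 298 stayed within the counting interval of the reported value, 79 left it and 8 of genes past 1.5-fold changed sign, 1 of them only through the 0.5 UMI added. The count past 1.5-fold in cluster CLP, 2 as reported, was 0 with thinned cells, without the richest cell, without cells with markers of another class or with at least 200 UMIs, 1 in male-type cells or with a fold of 2, and 6 with at least 1 UMI. In B1, also 2 as reported, it was 1 with each cell weighted equally, without cells with markers of another class or in female-type cells, 0 with a fold of 2 and 4 with at least 1 UMI. In B2, 1 as reported, it was 0 without cells with markers of another class or of plasma cells, in female-type cells, with at least 200 UMIs or with a fold of 2. Cr2 in B2 had log2 ratios of 0.67 without plasma cell markers and 1.604 in female-type cells, but 26 against 13 and 35 against 6 UMIs, under the 50 required. In B3, 0 as reported, it was 1 without cells with plasma cell markers, 2 with female-type cells alone and 1 with male-type cells alone. Ms4a1 in cluster CLP reversed to 0.53 without the richest cell, 0.089 without cells with markers of another class, 1.09 without cells with Mki67 or Top2a and 0.995 in male-type cells (19 against 0 UMIs). Iglc2 in cluster CLP reversed to -0.36 without cells with markers of another class and to -1.12 in male-type cells, where 4 UMIs in c-Maf KO against 0 in control cells take this sign only from the 0.5 UMI added to sums over 70 and 4 cells. Ms4a1 in B1 reversed to -0.16 without cells with plasma cell markers, a setting that left out 862 of 1114 c-Maf KO and 244 of 295 control B1 cells, and -0.50 in male-type cells. The cause was not tested.

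The difference in lambda-class share, c-Maf KO minus control, moved to -4.86 percentage points in B2 for female-type cells and to -13.94 in B1, 4.55 in B2 and 4.75 in B3 for male-type cells. That in the lambda share of UMIs moved to 0.93, -0.67 and 1.19 in B1, B2 and B3 over variable genes, and to -10.22, -3.59 and -3.37 with thinned cells, which leaves out shallow cells (lambda-class c-Maf KO B1 cells had a median of 2096.5 UMIs). It moved to -3.17, -2.32 and -6.35 without cells with plasma cell markers, a setting that left out most cells of each cluster. Without Jchain cells, an alternative added after the data were seen, it moved to -2.42 in B2 and -0.94 in B3. It moved to -0.73 in B1 and -6.92 in B2 for female-type cells and to -36.98 in B1 and 1.23 in B3 for male-type cells. With a majority of 50% in place of 90%, also added after the data were seen, lambda-class cells were 15.5% of c-Maf KO and 17.0% of control B3 cells. Without cells with plasma cell markers no control cell of cluster CLP was left, so no value was given there. Summing Iglc2 and Iglc3, also added after the data were seen, moved the calls of Iglc2 in cluster CLP (0.54) and B1 (-0.52) inside 1.5-fold. No paired analysis was possible because each group has 1 library. Depth limits Cr2 most, with at most 178 UMIs in any cluster.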

Other observations

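Light chain transcripts were also found outside the B cell clusters, in places chosen after their values were seen. In the authors' cluster CMP, Iglc3 had 672 CPM in c-Maf KO and 725 CPM in control cells, and held 68.0% of the lambda UMIs of c-Maf KO and 72.2% of those of control cells. In the authors' cluster D, Igkc had 4647 CPM in c-Maf KO and 4549 CPM in control cells. No cell there held more than 264 of the 2346 c-Maf KO or 131 of the 2050 control UMIs. Ms4a1 had 644 CPM in c-Maf KO and 501 CPM in control cells of cluster D, above its B1 levels. Some high levels in other clusters came from single cells. In the control cluster C1, 1 cell held 2112 of 2550 Iglc2 UMIs. In the c-Maf KO cluster Leukocytes_2, Igkc had 11111 CPM over 42 cells, of which 6 held a UMI, and 1 cell held all 935 Jchain UMIs.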
